A study of Mus musculus with 3 samples.

Results

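TRIM genes encode the tripartite motif proteins, a large family of ubiquitin ligases, and their levels were read here in chromatin-bound RNA of stimulated macrophages. The members were the genes of the GENCODE M21 annotation that have a protein-coding transcript and a symbol made of Trim and a number, which gave 67 of 55536 annotated genes. The rule uses annotation and names, and no measured value. The cells were macrophages grown from bone marrow of C57BL/6J mice and treated with lipid A at 100 ng/ml for 90 minutes. Lipid A is the part of bacterial lipopolysaccharide that Toll-like receptor 4 senses. RNA of the chromatin fraction, which holds transcripts still attached to their template as well as RNAs that stay in the nucleus, was depleted of ribosomal RNA and sequenced in 3 biological replicates, which form the only group. Unstimulated cells were not analysed here, so each value is a level after lipid A and says nothing of a change. Sex and age of the mice were not recorded, per the labels, and the 3 libraries share 1 donor label. The p-values therefore measure the spread between these libraries, which may be technical.

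A typical TRIM protein starts with a RING domain, which brings a ubiquitin-loaded E2 enzyme to a substrate, followed by 1 or more B-boxes and a coiled coil through which the proteins pair. The end of the protein varies and sorts the family: a PRY-SPRY domain in most antiviral members, a PHD finger and bromodomain in the TIF1 group, NHL repeats in others. In macrophages the family is known for antiviral defence and for setting the strength of Toll-like receptor and RIG-I-like receptor signalling, and many members are interferon-inducible genes.

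Depth in replicates 1 to 3 was 11277198, 24965749 and 19794886 expected counts, of which protein-coding genes took 68.4%, 40.2% and 50.3%. Input RNA was 1 µg, 250 ng and 500 ng in the same order, so starting amount, depth, composition and replicate cannot be told apart. The macrophage identity held in the markers: 8 of 10 macrophage markers were called above the reference defined below and none below it, with summed levels of 1161, 669.4 and 870.0 TPM, a length-normalised share of all transcripts in a library. Markers of other cells were lower. The 6 neutrophil markers summed to 0, 1.44 and 0.48 TPM with Mpo, Elane and Ly6g at 0, and the 4 B cell markers to 0.12, 0.07 and 0. The 6 stromal and endothelial markers summed to 3.05, 2.07 and 3.65 TPM, the 5 erythroid and megakaryocyte markers to 0.94, 2.49 and 1.75, and the 6 T and NK cell markers to 0.3, 0.88 and 1.82, or 25.2, 10.4 and 17.2 by the alignment-free table described below. The 5 muscle markers, which matter for the muscle members of the family, summed to 0.16, 0.21 and 0.07 TPM with Acta1, Actc1 and Myh4 at 0.

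Of the 67 TRIM genes, 42 reached a mean expected count of 10 and were tested, and 25 did not. Levels are given as log2(TPM + 1) relative to the library's median protein-coding gene, taken over the 10530 such genes that reached the same minimum. That median stood at 5.5, 3.7 and 4.93 TPM in replicates 1 to 3. A gene was called above or below when its level lay beyond 1 log2 unit from that median by limma's treat test at an adjusted p of 0.05, with Benjamini-Hochberg adjustment over all 13434 genes tested. By this rule 10 members were above, 11 were below and 21 were not called. Under a stricter minimum of 100 counts, where the reference median was 13.02, 8.57 and 11.49 TPM, Trim30a, Trim26, Trim21, Trim30c and Trim12a remained of the 10. Over all genes tested 21.3% were above and 21.3% were below, and over protein-coding genes 24.1% and 19.5%, so the family's counts lie near the share of all genes and are no result about the family. The median level of the 42 members was -0.24, against -0.21 for all genes tested. The 42 had passed a minimum count themselves, so these shares do not describe all 67 genes.

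**Figure D1:**
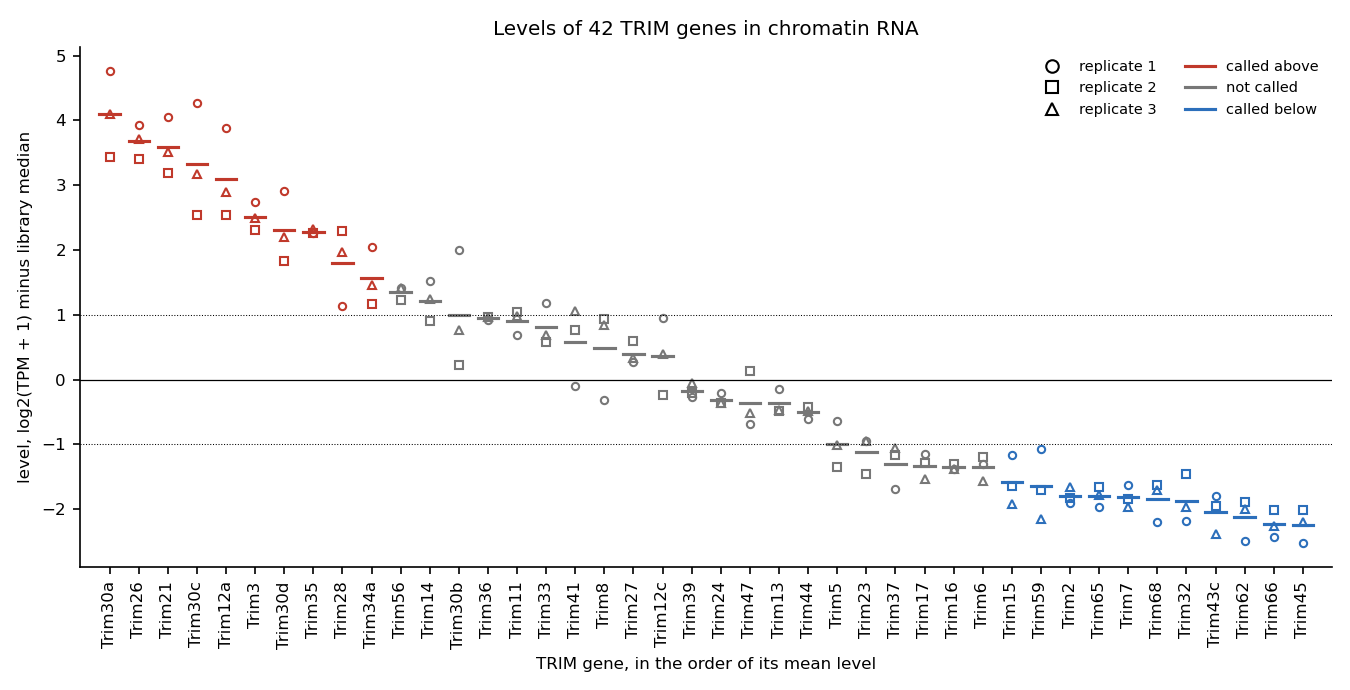
Level of each of the 42 tested TRIM genes (x axis, in order of the mean) as log2(TPM + 1) minus the library's median protein-coding gene (y axis); open symbols are the 3 replicates, short lines the means, dotted lines the bound of 1 log2 unit. The 10 genes called above run from Trim30a at 4.10 to Trim34a at 1.56, and the 11 called below lie between -1.57 and -2.24.

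The genes at the top lay mostly on a single chromosome. Of the 10 called above, 8 lie on chromosome 7, which holds 16 of the 67 members and 14 of the 42 tested. Over all protein-coding genes tested 24.1% were above, and the share over chromosome 7 genes was not taken. Among the 8, Trim28 and Trim34a lost their calls when some single libraries were left out. Inside chromosome 7 a block of 10 genes related to primate TRIM5, the factor that blocks incoming retroviral capsids, spans 289 kb (mm10 chr7:104218793-104507849). It holds Trim6, Trim34a, Trim5, Trim12a, Trim34b, Trim12c, Trim30b, Trim30c, Trim30a and Trim30d in this order. Of these, 9 passed the minimum count, 5 were above, none was below, and their median level was 1.56. Among the 33 tested members elsewhere 5 were above and 11 below, with a median of -0.37.

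The start sites of these genes are shown because the core of the interferon-stimulated response element, a motif known from many interferon-inducible genes, was found in 6 of the 8 members called above that have a promoter window. RefSeq windows of 300 bases (GRCm38.p6, 250 before to 50 after the start) were matched by symbol for 52 of the 67 members. The core was searched on both strands as GAAA, any 2 bases, and GAAA again, which reads TTTC, 2 bases and TTTC on the opposite strand. Trim2, called below, also held a match but was left out of the printed set by hand. The 30-base stretches around 1 match per gene read as follows on the gene's strand, with the 10 matched bases in capitals.

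Trim30a: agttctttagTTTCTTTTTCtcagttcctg

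Trim30d: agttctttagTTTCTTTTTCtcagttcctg

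Trim12a: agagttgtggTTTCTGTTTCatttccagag

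Trim5: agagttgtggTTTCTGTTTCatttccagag

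Trim12c: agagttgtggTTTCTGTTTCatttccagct

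Trim34a: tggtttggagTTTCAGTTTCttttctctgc

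Trim21: cctctgagagGAAACTGAAAgtgaaatttg

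Trim26: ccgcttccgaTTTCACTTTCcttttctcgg

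In mm10 coordinates the stretch of Trim30a is chr7:104465210-104465239 and that of Trim30d is chr7:104507871-104507900, both on the minus strand. The match began 36 bases before the RefSeq start of Trim30a and 41 bases before that of Trim30d. Trim12a (chr7:104315466-104315495), Trim5 (chr7:104288136-104288165) and Trim12c (chr7:104353359-104353388) also lie on the minus strand. Their matches began at base 11 of the transcript, counting the start as base 1, for Trim12a, and 49 and 29 bases before the start for Trim5 and Trim12c. Trim34a (chr7:104244457-104244486, plus strand) and Trim21 (chr7:102565450-102565479, minus strand) had the match at bases 11 and 14 of the transcript, and Trim26 (chr17:36836976-36837005, plus strand) 160 bases before the start. Trim21 and Trim26 each held a second match that overlaps the first.

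The core was present in 9 of the 52 members with a window (17.3%), against 3.99% of the 27025 genes in the RefSeq table. The members were Trim2 and the 8 printed ones. Within the chromosome 7 block it was in 6 of 10 genes, and the remaining 4 were Trim6, Trim34b, Trim30b and Trim30c. By call, it was in 6 of 8 members above, 1 of 9 below (Trim2), 2 of 14 not called (Trim5 and Trim12c) and 0 of 21 not tested. These are not independent promoters: the windows of Trim5, Trim12a and Trim12c were 93.9% to 100% identical where aligned, and those of Trim30a and Trim30d 93.9%. No test of the share was made, and no share was taken over all genes called above. The STAT site TTCNNNGAA was in 6 members (11.5%, against 9.55% of all genes), the kappaB form GGGA, any 2 bases and TTCC in Trim28 alone (1.92% against 1.63%) and TATAAA in 7 (13.5% against 15.7%). A match is a string of letters and not a measured binding site.

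Identical letters went with different levels in 2 pairs of genes. The printed stretches of Trim5 and Trim12a are identical in all 30 bases, and their windows were identical over the 241 bases that could be aligned. Trim12a had 29.8, 31.3 and 22.0 times the TPM of Trim5 in replicates 1 to 3. Trim30a and Trim30d, whose stretches are also identical and whose windows were 93.9% identical, differed by 3.69, 3.18 and 3.84 times. By the alignment-free table the ratios were 26.2, 15.3 and 18.3 for Trim12a over Trim5, and 3.17, 3.22 and 4.26 for Trim30a over Trim30d.

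Within the block the highest gene was Trim30a (ENSMUSG00000030921.17, mm10 chr7:104409025-104465193, minus strand), known to curb NF-kappaB signalling downstream of Toll-like receptors by driving the loss of the TAK1 partners TAB2 and TAB3. It had 176.19, 50.05 and 100.42 TPM in replicates 1 to 3, from 7221.18, 3832.09 and 6187.82 expected counts. Replicate 1 was highest and replicate 2 lowest, yet Trim30a ranked first of all 67 members by mean TPM. Its level was 4.10 ± 0.26 (SE, n = 3; limma's treat, adjusted p = 0.000123), which is 17.2-fold above the reference on the TPM + 1 scale.

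Its neighbours Trim30c and Trim30d are mouse paralogs of the same subfamily. Trim30c (chr7:104382065-104400837) had 124.30, 26.37 and 52.25 TPM and a level of 3.33 ± 0.32 (SE; limma's treat, adjusted p = 0.001). Trim30d (chr7:104470014-104507849) had 47.72, 15.72 and 26.15 TPM and a level of 2.31 ± 0.24 (SE; limma's treat, adjusted p = 0.0025). Both were highest in replicate 1 and lowest in replicate 2. Trim30b (chr7:104355382-104369884) followed the same order of libraries but was lower, with 25.03, 4.5 and 9.07 TPM, and was not called (level 1.00 ± 0.33 SE).

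Trim12a (chr7:104299894-104315466), one of the mouse counterparts of TRIM5, had 94.67, 26.26 and 43.05 TPM. Its level was 3.10 ± 0.27 (SE; limma's treat, adjusted p = 0.000803). Its close relatives were lower: Trim12c had 11.61, 2.97 and 6.84 TPM and Trim5 had 3.18, 0.84 and 1.96 TPM. Neither was called.

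Trim34a (chr7:104244457-104262234) had 25.94, 9.59 and 15.30 TPM and a level of 1.56 ± 0.21 (SE; limma's treat, adjusted p = 0.0431). The call was lost without replicate 1 (level 1.32) and without replicate 3 (1.61). Trim6, which builds free ubiquitin chains that feed the kinase IKK-epsilon, had the lowest mean TPM of the block genes that passed, with 1.63, 1.06 and 1.00 TPM. The alignment-free table put it higher, at 8.20, 2.52 and 4.17 TPM, and above Trim5 (5.93, 1.51 and 3.02) in all 3 libraries. Trim34b did not pass the minimum count and was listed at 0.06, 0.11 and 0 TPM.

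In the alignment-based table, the order of the block's genes was nearly the same in every library. Of the 36 pairs among the 9 tested genes, 35 had the same direction in all 3 libraries. The exception was Trim5 against Trim6 (exact two-sided sign-flip test, p = 0.5), and for the other pairs the test gave p = 0.25, the smallest it can reach with 3 libraries. Many of these pairs lie far apart in level. The alignment-free table, however, put Trim30b (73.34, 8.475 and 19.0 TPM) above Trim34a (34.67, 6.775 and 14.85 TPM) in all 3 libraries. Neighbours in the level order of all 42 members are the closest pairs by construction, and the means of these same libraries set that order. Of these 41 pairs, 4 held their direction in all 3 libraries. The smallest margins were in replicate 2 for Trim30a over Trim26 (0.037 log2 units), Trim30c over Trim12a (0.006) and Trim12a over Trim3 (0.231). For Trim44 over Trim5 it was 0.027 in replicate 1.

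**Figure D2:**
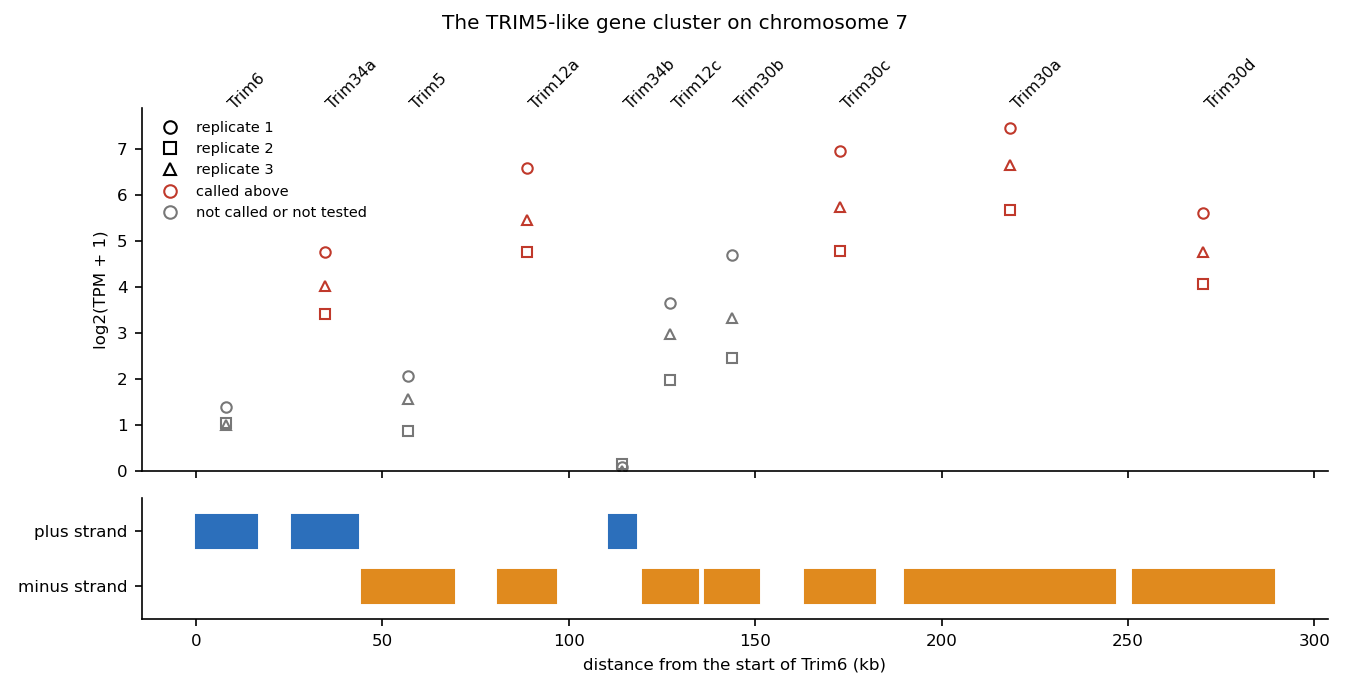
Upper panel: log2(TPM + 1) of the 10 TRIM genes of the chromosome 7 block in each replicate, at the middle of the gene; lower panel: extent of each gene on its strand, as distance from the start of Trim6 in kb. Trim30a, Trim30c and Trim12a reach the highest levels, while Trim34b, listed at 0.06, 0.11 and 0 TPM, lies between Trim12a and Trim12c.

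Near-identical copies can exchange reads, and the block holds several. The coding sequences of Trim34a and Trim34b were 98.2% identical, those of Trim5 and Trim12a 97.1% over the 891 bases of the shorter Trim12a sequence, and those of Trim5 and Trim12c 96.6%. Over whole transcripts, 29.5% of the 75-base windows of Trim34a also occur in another gene, as do 42.5% of Trim34b, 20.6% of Trim5 and 16.9% of Trim12c. The values of these genes, and how reads were split between them, are uncertain to that extent. The most abundant genes shared fewer windows: 4.98% for Trim30a, 5.25% for Trim12a, 5.4% for Trim30d and 0 for Trim30c. Trim12a and Trim34a also overlap annotated antisense genes (Gm15133 and Gm47248), whose reads cannot be told apart without a stated strand setting. In all, 39 of the 67 members overlap another annotated gene and 15 a protein-coding one.

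All 9 tested genes of the block were highest in replicate 1. On the log2 scale of CPM, counts scaled to library size with TMM factors, replicate 1 exceeded the mean of replicates 2 and 3 by a median of 0.82 log2 units in the block. Outside the block the median was -0.25, and 9 of 33 members were highest in replicate 1. The same was true of 44.5% of all genes tested and 36.4% of the protein-coding ones. With DESeq2 size factors, 18 of the 42 members were highest in replicate 1, as with TMM. Among block genes Trim30b differed the most (1.38) and Trim6 the least (0.36). The block supplied 55.3%, 36.3% and 42.8% of the summed TPM of the 67 members, or 55.2%, 38.0% and 42.6% by the alignment-free quantification. Replicate 1 also differed in starting amount, depth and the share of protein-coding counts, as given above, and their part in this was not tested.

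**Figure D3:**
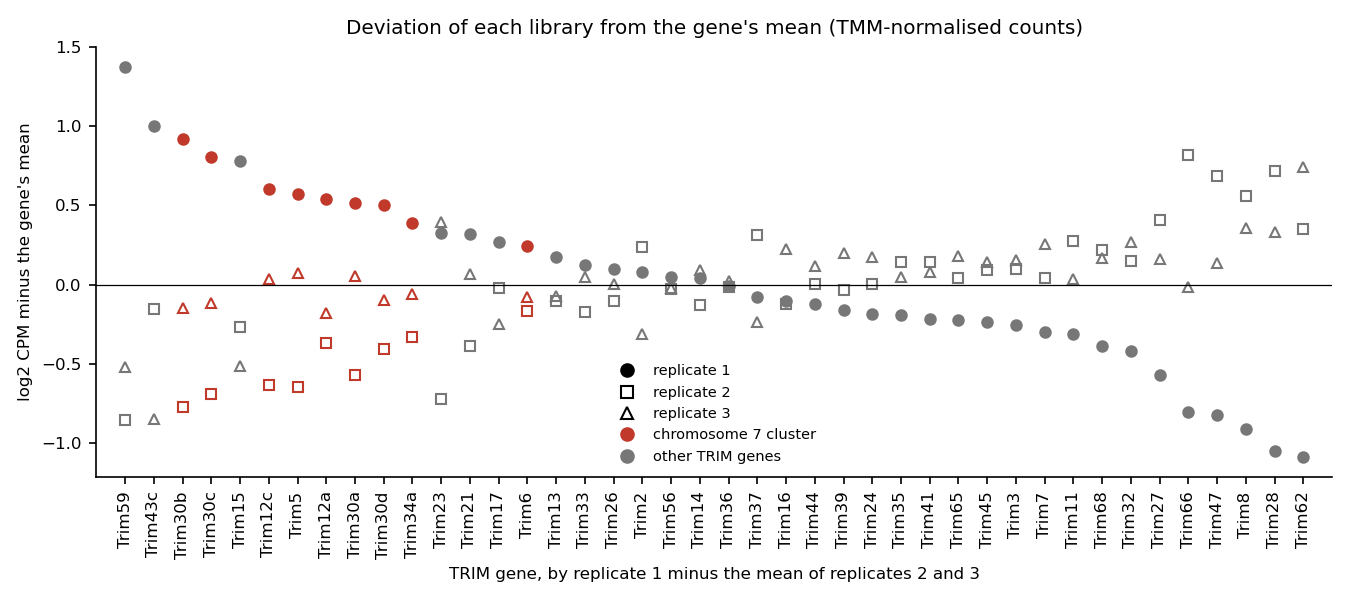
Log2 TMM-normalised CPM of each replicate minus the gene's mean (y axis) for the 42 tested TRIM genes, ordered by replicate 1 minus the mean of replicates 2 and 3 (x axis); filled circles are replicate 1, red marks the chromosome 7 block. All 9 red filled circles lie above 0, from Trim30b to Trim6, while Trim62 and Trim28 at the right end were lowest in replicate 1.

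Members known to act in innate signalling came next. Of 18 listed, 14 passed, 3 were above, 4 were below, and their median level was 0.45. The list was drawn from general knowledge of the proteins, with earlier results of these data known. Its split between higher and lower calls is near that of all genes.

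Trim26 (ENSMUSG00000024457.16, chr17:36837134-36859398, plus strand), which has been linked to turnover of IRF3 in the nucleus, had 97.96, 48.75 and 76.54 TPM. It was the second highest member, at a level of 3.68 ± 0.18 (SE; limma's treat, adjusted p = 3.99e-05). Relative to TMM-normalised counts it varied little, with an SD of 0.10 log2 units.

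Trim21 (chr7:102557921-102565486, minus strand), the cytosolic Fc receptor that targets antibody-coated viruses for degradation, had 106.68, 41.90 and 66.71 TPM. Its level was 3.58 ± 0.21 (SE; limma's treat, adjusted p = 9.62e-05). It lies outside the 289 kb block on the same chromosome. Trim35 (chr14:66297031-66311424), first described in blood cell lineage switching, had 30.36, 21.52 and 28.66 TPM. The 3 libraries were close in level (2.28, SD 0.03), and the gene was called above.

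The remaining members of the signalling list lay nearer the reference. Trim56, which binds RNA and acts on the cGAS-STING pathway, had 13.7 ± 3.26 TPM (SD, n = 3) and a level of 1.35, and Trim14, an adaptor at mitochondrial MAVS, had 12.8 ± 4.94 TPM and a level of 1.22. Neither was called. Trim14 overlaps Nans and Trim41 overlaps Rack1, both on the opposite strand, so the limit on strand holds for them too. Trim8, Trim27, Trim41, Trim13 and Trim23 lay between levels of 0.58 and -1.11 and were not called either. Called below were Trim65, a ligase for the RNA sensor MDA5 (0.66, 0.49 and 0.73 TPM), Trim59 (2.08, 0.45 and 0.33 TPM), Trim62 (0.16, 0.27 and 0.49 TPM) and Trim68 (0.41, 0.52 and 0.82 TPM). Trim65 lost its call by the alignment-free table, where it had 5.57, 1.58 and 2.24 TPM. Trim59 was high in replicate 1 alone, had the widest spread of the 42 members (SD 1.21 log2 CPM), and its call was lost without replicate 2 or replicate 3. Trim29, Trim31, Trim38 and Trim40 did not pass the minimum count.

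The TIF1 group acts in the nucleus, where a PHD finger and bromodomain read histone tails. All 4 members passed, with 1 above, 1 below and a median level of 0.25. Over all genes tested 21.3% were above and 21.3% below. Trim28 (KAP1, chr7:12999114-13031035, plus strand), the corepressor of KRAB zinc finger proteins, had 13.25, 22.05 and 22.29 TPM and a level of 1.80 ± 0.25 (SE; limma's treat, adjusted p = 0.022). It was the only member called above whose TPM was not highest in replicate 1: there its log2 CPM was 1.57 below the mean of the other libraries. On log2 CPM Trim3 and Trim35, also called above, were lowest in replicate 1 too (differences of -0.376 and -0.284). Trim28 overlaps Zbtb45 on the opposite strand. The call was lost without replicate 2 (level 1.55) and without replicate 3 (1.71). Trim33 (TIF1-gamma) had 9.45 ± 3.94 TPM (SD, n = 3) and Trim24 (TIF1-alpha) 3.64 ± 1.00 TPM, and neither was called. Trim66 (TIF1-delta), best known from testis, was called below with 0.21, 0.17 and 0.24 TPM.

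The NHL-repeat members bind RNA or cytoskeletal cargo and are mostly known from neurons, muscle and development. Trim3 (chr7:105604463-105633571, minus strand) stood apart from the others with 42.70, 22.23 and 32.50 TPM, at a level of 2.52 ± 0.17 (SE; limma's treat, adjusted p = 0.000424). Trim2 (0.74, 0.32 and 0.87 TPM) and Trim32 (0.43, 0.72 and 0.51 TPM), the gene of a limb-girdle muscular dystrophy, were called below. Trim71, an embryonic regulator silenced by let-7, had no count in any library.

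Of 8 COS-box and muscle members, 1 passed. This was Trim36, known from the sperm acrosome, at 10.02 ± 1.66 TPM (SD, n = 3) and with the smallest spread of the 42 members (SD 0.02 log2 CPM). Trim54, Trim55 and Trim63, the MuRF ligases of the sarcomere, had no count. Trim9, Trim46, Trim67 and Trim72 had at least 1 count but did not pass.

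The other 23 members gave 11 that passed, none above and 4 below, at a median level of -1.33. Over all genes tested 21.3% were above and 21.3% below, and the counts of this group were not tested against that. Called below were Trim7, a partner of glycogenin (1.10, 0.31 and 0.52 TPM), Trim15 (1.91, 0.51 and 0.56), Trim43c (0.88, 0.21 and 0.14) and Trim45 (0.13, 0.17 and 0.30). Trim45 and Trim43c had mean counts of 11.0 and 11.4, just over the minimum. The 11 genes called below had mean counts of 11.0 to 42.3 in all, against 345.7 to 5747 for the 10 above. The pseudocount of 1 pulls such low values together, so their order among themselves is not resolved. Trim15 lost its call without replicate 2 or replicate 3, and Trim7 without replicate 3.

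Of the 25 members that did not pass, 13 had no count in any library: Trim10, Trim31, Trim40, Trim42, Trim43b, Trim52, Trim54, Trim55, Trim60, Trim61, Trim63, Trim71 and Trim80. A count of 0 allows up to 3 counts, or 0.266, 0.12 and 0.152 CPM in replicates 1 to 3. The other 12 (Trim9, Trim29, Trim34b, Trim38, Trim43a, Trim46, Trim50, Trim58, Trim67, Trim69, Trim72 and Trim75) had a mean TPM of at most 0.12. Such limits take in counting error alone, because PCR copies of a molecule cannot be recognised here.

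The split of TPM over annotated transcript types differed widely between genes. For the 31 members with a mean of at least 1 TPM, the share of TPM was taken over transcript types of the annotation. The leading transcript was protein-coding in 25 and of the retained-intron type in 3 (Trim21, Trim3 and Trim6). In 19 of the 31 it was the same transcript by both quantifications, and Trim21 was among those where it differed. Of Trim21's TPM, 79.2% ± 2.77 (SD, n = 3) was assigned to its 3 retained-intron transcripts and 20.8% to its coding ones. The retained-intron share was 71.8% ± 6.67 in Trim28, 65.8% ± 12.7 in Trim3 and 57.5% ± 15.3 in Trim24. For Trim28 this left 12.1% ± 3.74 in its single coding transcript, or 1.03, 3.14 and 3.18 TPM. Unspliced RNA of transcripts still attached to their template was not told apart from retained introns here. Some of these entries are short, as Trim21-203 at 666 bases, and TPM divides by length. The shares therefore describe the assignment to annotated transcripts.

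In the chromosome 7 block 4 of 9 genes have a retained-intron transcript in the annotation, as do 10 of the 22 others. Trim30a had 80.8% ± 1.46 (SD, n = 3) of its TPM in its coding transcript, or 61.7% ± 4.57 by the alignment-free table. Trim30c has 1 annotated transcript, and Trim30d, Trim34a, Trim12c and Trim5 have coding transcripts only. Such genes cannot show a retained-intron share, whatever their RNA. Where the block does have such transcripts besides Trim30a, they took 39.3% ± 17.9 of Trim6, 30.4% ± 2.41 of Trim12a and 12.4% ± 1.99 of Trim30b. Trim26 had only 24.9% ± 16.7 of its TPM in coding transcripts (5.67%, 35.4% and 33.7% in replicates 1 to 3). Its leading transcript, Trim26-209, is annotated as a processed transcript. Counting coding transcripts of the alignment-based table alone, the order at the top became Trim30a (88.4 TPM), Trim30c (67.6), Trim30d (29.9) and Trim12a (27.6). Trim26 moved from rank 2 to 7, Trim21 from 3 to 8, Trim3 from 6 to 14 and Trim28 from 9 to 23.

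The same shares were taken over all genes with such transcripts. In the 14 members that have a retained-intron transcript its median share was 38.6%, from 12.4% to 79.1%, against 45.7% in 5749 such genes. It exceeded 50% in 4 of the 14 members and in 42.5% of all such genes. By the alignment-free quantification the medians were 49.0% and 44.4%, and 7 members exceeded 50%. Trim37 moved the most, from 15.9% to 57.6%, so its split between transcripts depends on the method.

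**Figure D4:**
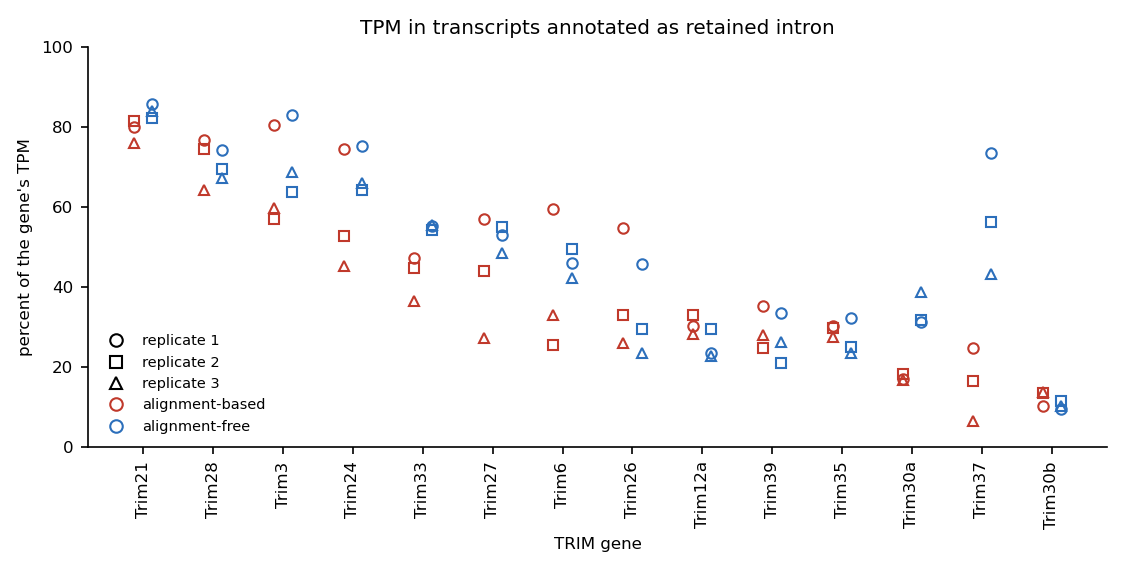
Percent of a gene's TPM in transcripts annotated as retained intron (y axis) for the 14 TRIM genes that have such a transcript and a mean of at least 1 TPM (x axis), per replicate and quantification. Trim21 had the highest mean share by both quantifications (79.2% alignment-based), and the mean of Trim37 differed the most between them.

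No tested member was called different between the 2 deposited quantifications. After each was centred on its own median, none of the 42 members differed between them by more than 1 log2 unit by limma's treat (0 at an unadjusted p under 0.05 as well), where 1.9% of all genes were higher and 0.633% lower in the alignment-free table. On the TPM + 1 scale the largest difference was in Trim14, which was 0.98 log2 units higher alignment-free (70.7, 18.9 and 38.3 TPM, against 17.63, 7.76 and 13.01). Its coding transcripts took 33.5% of its TPM there and 85.4% in the alignment-based table. Trim16 was lowest, at -0.70. The pseudocount of 1 shrinks differences of low genes. In proportion, Trim65 (mean 0.63 TPM, 3.13 alignment-free) and Trim6 (1.23 and 4.97) differed more than Trim14.

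Members without counts could still have alignment-free values. Trim52 had none in the alignment-based table, but 18.1, 2.49 and 6.11 alignment-free TPM. Trim63 had 6.80, 1.65 and 2.75 and Trim43b 2.03, 0.30 and 0.83. These 3 are the members with a count under the minimum and a mean of at least 1 alignment-free TPM, and whether they are transcribed here cannot be read from tables that differ.

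**Figure D5:**
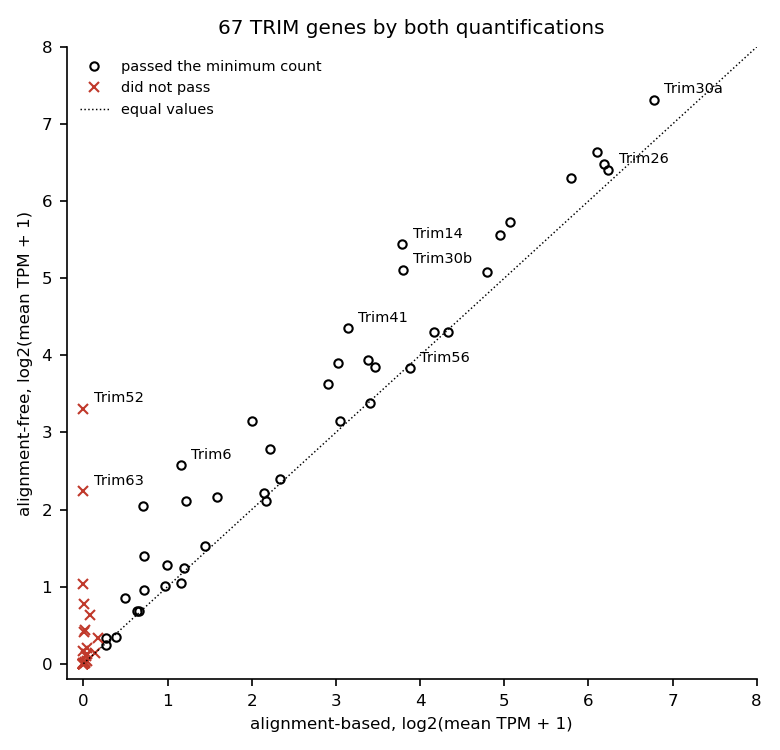
Mean TPM of the 67 TRIM genes over 3 replicates, as log2(TPM + 1), by the alignment-based (x axis) and alignment-free (y axis) quantification; circles passed the minimum count, crosses did not, and the dotted line marks equal values. Most circles lie on or above the line, and values are not centred here. The sums over the 67 genes were 922.2, 378.3 and 598.1 TPM alignment-based in replicates 1 to 3. Alignment-free they were 1636, 351.1 and 783.9 TPM, so replicate 2 was lower. Trim52 and Trim63 lie at 0 on the x axis and well above it on the y axis.

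The spread of the members between replicates can be set beside that of all genes. The SD of log2 TMM-normalised CPM had a median of 0.32 over the 42 members and 0.40 over all genes tested. With a minimum mean count of 100 the order turned, at 0.386 for the members and 0.347 for all genes. With CPM and no TMM factors the medians were 0.526 and 0.563. Within the block the median was 0.55 at the minimum of 10, and outside it 0.28. By the deposited TPM intervals, all 3 libraries were apart for 11 of the 42 members, among them 8 of the 9 tested block genes. At least 1 pair of libraries was apart for 27. The share over all genes was not taken, and TPM was not centred on the library median here. The counts are therefore no result about the members or the block. These intervals cover assignment and counting within a library, and 12 of the 126 TPM values lay outside their own interval.

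The partners of the family were present in the same libraries. Of 13 E2 enzymes, which hand ubiquitin to RING ligases, all passed, 4 were above and none below. Over all protein-coding genes tested, 24.1% were above and 19.5% below. The highest E2 enzymes were Ube2d3 (132.22, 44.91 and 67.71 TPM) and Ube2d2a (68.29, 30.07 and 43.33 TPM), and the lowest Ube2l6 (mean 7.87 TPM) and Ube2v2 (mean 3.45 TPM). Of the 13, 12 were highest in replicate 1 on TMM-normalised CPM, so replicate 1 was high in more lists than the block.

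Of 13 signalling proteins that TRIM proteins act on or work with, 7 were above and none below, against the same 24.1% and 19.5%. The list was picked by hand from known proteins, and its count was not tested. Ifih1, the RNA sensor MDA5, was highest (608.71, 186.74 and 333.84 TPM), followed by the kinase Tbk1 (132.20, 66.53 and 79.12 TPM). Tmem173, the adaptor STING, and the adaptor Mavs were lowest, with means of 2.37 and 2.03 TPM. Of 5 TRIM proteins under other symbols, 1 was above, 1 below and 1 did not pass, beside the same 24.1% and 19.5%. Mid1, a microtubule-bound ligase, had 140.86, 142.57 and 104.69 TPM, more on average than any of the 67 members. Its alignment-free values were far higher, at 845, 981 and 890 TPM, so its level depends on the quantification. Pml, the nuclear body organiser, had a mean of 15.8 TPM and was not called, and Cmya5 and Mid2 had means of 0.04 and 0.01 TPM.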

How the data were processed

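Each of the 3 libraries came with a gene table and a transcript table of expected counts and TPM, made by the authors from an alignment to the transcriptome (mm10, GENCODE M21), per the deposited description files. A further transcript table, with TPM and estimated counts, came from the reads themselves and no alignment, per the deposited description files. The sources used here do not give the aligner, versions, strand setting, filters or treatment of multi-mapping reads. The deposited TPM interval bounds and posterior SD are scores of the authors' quantification, per the file headers, and entered no test. Alignment-free values were summed to genes. TPM depends on all RNAs of a library.

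Genes with a mean expected count of 10 were tested with limma 3.58.1 (treat, intercept only, pseudocount 1, bound 1 log2 unit, R 4.3.3), after a check on simulated data. TMM factors (1.438, 0.727, 0.957; edgeR 4.0.16, prior count 2) and DESeq2 1.42.0 used counts rounded to whole numbers. Every tested member could be named, with library values for those called, the 10 highest, the 5 lowest and the chromosome 7 block; of other lists the 2 highest and 2 lowest were named. Members and lists were chosen with earlier results of these data known. Of 14 listed signalling partners 13 matched a symbol. A further gene with a symbol of this form is not reported here. Coding sequences were aligned with Biopython 1.88.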

Additional observations from a re-analysis of the deposited data

How the results depend on the processing

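The calls depend on which genes enter the reference median. With a minimum mean count of 100, under which 25 members were tested, 5 were above and 3 below. Trim3, Trim30d, Trim35, Trim28 and Trim34a then lost their calls, and the 3 below (Trim5, Trim23 and Trim44) were not among the 11. Levels turned negative for Trim30b (-0.072), Trim36 (-0.12), Trim11 (-0.17), Trim33 (-0.25), Trim41 (-0.49), Trim8 (-0.58), Trim12c (-0.70) and Trim27 (-0.67). With no minimum, the reference median fell to 0.24, 0.16 and 0.19 TPM, all 67 members were tested, 25 were above and 0 below, and 1 member (Trim52) differed between quantifications. The level of 22 members then turned positive: Trim39 (2.07), Trim24 (1.93), Trim13 (1.88), Trim47 (1.88), Trim44 (1.74), Trim5 (1.24), Trim23 (1.13), Trim37 (0.94), Trim17 (0.92), Trim16 (0.89), Trim6 (0.89), Trim15 (0.67), Trim59 (0.60), Trim2 (0.44), Trim7 (0.43), Trim65 (0.44), Trim68 (0.40), Trim32 (0.37), Trim43c (0.20), Trim62 (0.12), Trim66 (0.012) and Trim45 (0.002). Both changes follow from the moved median. The share of all genes called under either setting is not given, so these counts are no result about the members. Trim39 also turned with the median of all genes (0.031) and Trim44 with the alignment-free values (0.050).

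With all other settings the numbers above and below stayed within 1.5 times. Leaving out 1 library gave 8 to 9 above, 8 to 13 below and 0 to 0 different between quantifications, and a median SD of 0.166 to 0.439. Calls above were lost by Trim34a (posterior mean TPM) and by Trim28 and Trim34a (alignment-free), and gained by Trim14 (alignment-free) and Trim56 (pseudocount 0.1, median of all genes, edgeR). Calls below were lost by Trim2, Trim7 and Trim59 (posterior mean TPM), Trim65 (alignment-free) and Trim15 and Trim59 (median of all genes, edgeR). They were gained by Trim6 and Trim37 (pseudocount 0.1), Trim16 and Trim17 (pseudocount 0.1, posterior mean TPM, alignment-free, edgeR), Trim23 (alignment-free) and Trim6 (edgeR). Without replicate 1, Trim6 and Trim17 were also below. No comparison between groups was possible because there is 1 group.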
